A study of Sus scrofa with 14 samples.

Results

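Polyadenylated RNA of 2 porcine cell lines grown in the same medium, FLB2i, was compared to ask how an induced pluripotent line differed from an embryo-derived one once the medium was shared. FLB2i holds LIF, FGF2 and BMP4 together with inhibitors of GSK3A and of TGFB1. Epi-piPSC-FLB2i is line B5, made from fetal fibroblasts with episomal plasmids that carry human POU5F1, SOX2, KLF4, LIN28 and L-MYC and a short hairpin RNA, and it was sampled at passages 9 and 12. pESCLC-FLB2i is line B1, an embryonic stem cell-like line from a blastocyst outgrowth, sampled at passages 3 and 6. It had been started in FGF2 medium, moved into FL6i at day 8 and moved from FL6i into FLB2i at day 18, whereas the Epi-piPSC line was in FLB2i from the days after transfection. FL6i, the second medium, shares LIF, FGF2 and the GSK3A and TGFB1 inhibitors but blocks BMP, MAP2K1, MAPK8 and MAPK14. Both lines were kept on irradiated mouse fibroblasts. Genes were taken that reached 10 normalized counts in 2 or more of these 4 samples, which left 14397 of 19588. A normalized count is the read count of a gene divided by the size factor of its sample. Each group is 2 passages of 1 line, so the p-values measure the spread between passages, and the origin of the cells, the line and the history of the culture cannot be told apart.

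Pluripotent stem cells keep a small network of transcription factors active and hold the genes of specialised cells silent. Mouse and human cells of this kind differ in the signals they depend on, and in pig both LIF and FGF signalling have been used to hold cultures in one state or another. CDX and HOX genes, by contrast, are switched on in the posterior part of the embryo as the body axis forms, with WNT, FGF and retinoic acid signals acting on them. These families are therefore useful markers of what a cultured line expresses beside its pluripotency genes.

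The 4 samples had 16729784 and 19456453 reads on genes in Epi-piPSC-FLB2i and 21232806 and 17926620 in pESCLC-FLB2i, and 1 read was worth between 0.769 and 1.03 normalized counts. Over the tested genes, the log2 values of the Epi-piPSC-FLB2i duplicates correlated at r = 0.984, those of the pESCLC-FLB2i duplicates at 0.919, and samples of different lines at 0.824 to 0.865. A log2 difference of 3 or more separated the duplicates for 11 genes in Epi-piPSC-FLB2i and for 372 in pESCLC-FLB2i. The passage 6 sample of pESCLC-FLB2i held far more transcript of matrix genes than the passage 3 sample. COL1A1 stood at 239 and 6951 normalized counts in passages 3 and 6, COL3A1 at 258 and 4721, and POSTN at 24.6 and 1692. Across the whole list of 32 fibroblast and mesenchymal genes the summed level was 79031 at passage 3 and 263899 at passage 6, against 119231 and 101086 in Epi-piPSC-FLB2i. The part of this difference in the results that follow was not tested beyond leaving each sample out. In bulk RNA, fewer cells of a type and less RNA per cell cannot be told apart.

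The 2 lines differed in 1571 genes in limma (Benjamini-Hochberg adjusted p no higher than 0.05), 10.9% of those tested. Of these, 611 (4.24% of the tested genes) were higher and 960 (6.67%) lower in Epi-piPSC-FLB2i. A differentially expressed gene (DEG) had in addition to move by a log2 of 3 or more. There were 530 DEGs (3.68%), 203 of them higher (1.41%) and 327 lower (2.27%) in Epi-piPSC-FLB2i. None of the 530 had overlapping groups, where 64.0% of all tested genes had groups that did not overlap. Log2 fold changes throughout are Epi-piPSC-FLB2i relative to pESCLC-FLB2i on the log2(normalized count + 1) scale, which understates the change of low genes, and are given with their standard error. The median of all tested genes was -0.01. Both pESCLC-FLB2i samples were at 0 reads in 28 of the higher DEGs, and both Epi-piPSC-FLB2i samples in 35 of the lower ones. With a pESCLC-FLB2i sample left out, 5709 genes (without passage 3) and 4543 genes (without passage 6) passed. With an Epi-piPSC-FLB2i sample left out, limma passed 0 genes, with 1807 (without passage 9) and 1994 (without passage 12) at an unadjusted p under 0.05, since the lone sample is then taken to vary like the more distant pESCLC-FLB2i duplicates. All 530 DEGs kept their sign in each of these fits, an outcome that groups without overlap fix in advance.

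**Figure D1:**
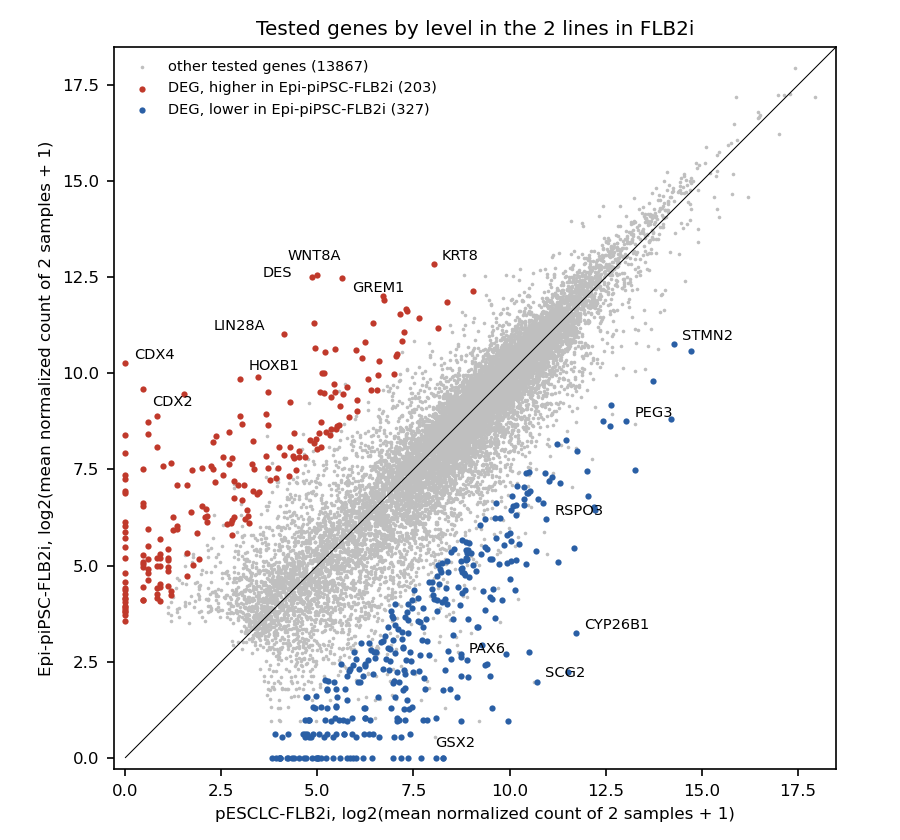
Each point is one of the 14397 tested genes, placed by the log2 of its mean normalized count plus 1 in pESCLC-FLB2i (x axis, n = 2) and in Epi-piPSC-FLB2i (y axis, n = 2), with the 203 higher DEGs in red and the 327 lower DEGs in blue. The line marks equal levels, and CDX4 lies on the left edge, at 0 in both pESCLC-FLB2i samples.

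Among the DEGs with a symbol and a mean of 200 or more in the higher line, the largest rises in Epi-piPSC-FLB2i were in a pair of caudal-type homeobox genes, which pattern the posterior embryo and act upstream of HOX genes. CDX4 (chromosome X, 59089131 to 59100958, Sscrofa11.1) had 1297 and 1159 normalized counts at passages 9 and 12 and 0 in both pESCLC-FLB2i samples, at least 467-fold higher against a floor of 3 reads per library (adjusted p = 0.00936). CDX2 (chromosome 11, 5339727 to 5346081), which in the mouse also specifies trophectoderm, had 785 and 757 against 0.769 and 0. That is a ratio of 1783 (counting interval 319.6 to 70482), since a single read was found in pESCLC-FLB2i, with an adjusted p of 0.00936. Both genes were on in each sample of one line and absent or near absent in each sample of the other. On the other side of the comparison, the forebrain homeobox genes PAX6 and GSX2 were over 100 normalized counts in both pESCLC-FLB2i samples and under 10 in both Epi-piPSC-FLB2i samples. The sequence around the annotated RefSeq start of these 4 genes, 250 bases before it and 50 from it on, is shown because these transcription factors, chosen after their values were seen, were near absent from one line and present in the other. In Sscrofa11.1 the windows lie at chr11:5346032-5346331, reverse strand, for CDX2, at chrX:59088881-59089180, forward strand, for CDX4, at chr2:28971315-28971614, forward strand, for PAX6, and at chr8:40879843-40880142, forward strand, for GSX2. Each reads 5′ to 3′ on the strand of its gene, with CG dinucleotides in capitals.
CDX2: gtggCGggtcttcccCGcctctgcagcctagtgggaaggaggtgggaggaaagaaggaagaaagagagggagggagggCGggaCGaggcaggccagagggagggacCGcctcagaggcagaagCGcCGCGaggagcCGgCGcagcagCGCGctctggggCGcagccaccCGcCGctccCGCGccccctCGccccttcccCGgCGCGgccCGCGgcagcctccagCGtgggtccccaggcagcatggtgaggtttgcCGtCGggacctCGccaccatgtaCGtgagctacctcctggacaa
CDX4: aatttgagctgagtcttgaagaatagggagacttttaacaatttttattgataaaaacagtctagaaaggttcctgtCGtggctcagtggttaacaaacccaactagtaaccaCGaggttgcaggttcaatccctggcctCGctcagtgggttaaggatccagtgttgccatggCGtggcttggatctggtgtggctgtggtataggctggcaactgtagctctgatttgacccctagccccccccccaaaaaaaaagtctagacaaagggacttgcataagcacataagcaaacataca
PAX6: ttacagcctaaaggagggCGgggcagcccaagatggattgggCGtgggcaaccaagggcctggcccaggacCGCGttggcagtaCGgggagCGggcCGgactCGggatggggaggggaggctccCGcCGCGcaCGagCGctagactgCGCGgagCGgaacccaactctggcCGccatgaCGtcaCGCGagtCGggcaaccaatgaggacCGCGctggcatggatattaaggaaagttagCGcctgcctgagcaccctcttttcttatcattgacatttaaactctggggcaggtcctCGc
GSX2: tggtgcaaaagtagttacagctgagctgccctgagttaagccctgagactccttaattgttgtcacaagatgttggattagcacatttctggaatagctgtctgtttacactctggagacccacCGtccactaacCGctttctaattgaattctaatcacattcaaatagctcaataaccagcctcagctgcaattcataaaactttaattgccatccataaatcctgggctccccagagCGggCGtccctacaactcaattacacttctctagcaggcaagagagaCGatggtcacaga

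CDX2 and PAX6 carried 28 and 25 CG dinucleotides in these 300 bases, and CDX4 and GSX2 carried 4 and 5. Each direction thus had 1 window rich and 1 poor in CG. Over the 11143 tested genes with such a window the median was 22 CG dinucleotides. It was 14 over the 155 windows of higher DEGs and 21 over the 263 windows of lower DEGs. The letters CTTTGAT, the core bound by TCF and LEF factors, or their reverse complement ATCAAAG occurred in 1.86% of all windows, in 4 of the 155 (2.58%) and in 6 of the 263 (2.28%). A match describes the letters only.

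Beside the CDX genes, the 12 largest rises by this measure held other regulators of development. VRTN, for which variants in pig are linked to vertebra number, had 389 and 288 normalized counts against 0 in both pESCLC-FLB2i samples (at least 129-fold, adjusted p = 0.00936). WNT8A, a WNT ligand of the gastrulating embryo, reached 6371 and 5797 against 52.3 and 8.87 (log2 fold change 8.05 ± 0.80, adjusted p = 0.0154). HOXB1, the hindbrain gene at the front end of its cluster, had 886 and 979 against 13.8 and 0 (7.92 ± 1.29, adjusted p = 0.0308). In these 3 genes the lowest Epi-piPSC-FLB2i value was over every pESCLC-FLB2i value, as the rule that chose them required.

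DES, the intermediate filament of muscle, had 5985 and 5645 normalized counts against 44.6 and 11.8 (log2 fold change 7.91 ± 0.62, adjusted p = 0.0123). GREM1, a secreted antagonist of BMPs, had 6219.8 and 5289.5 against 5.39 and 92.6 (7.87 ± 1.25, adjusted p = 0.0299). SP8, a zinc finger factor of limb and forebrain, had 533 and 422 against 13.8 and 0 (6.95 ± 1.30, adjusted p = 0.0391). The remaining genes of the 12 were LIN28A, described with the pluripotency genes, BCAS1, known from early oligodendrocytes, CAPN6, a calpain without protease activity, and ANKRD1, a target of YAP. BCAS1 had 385 and 465 against 0 and 0.985, and CAPN6 819 and 584 against 0.769 and 2.96. ANKRD1 was the least even of the 12 in Epi-piPSC-FLB2i, at 393 and 90.4, against 0 in both pESCLC-FLB2i samples.

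The 12 largest falls held several genes known from neurons and their precursors. CYP26B1, which breaks down retinoic acid, had 2161 and 4607 normalized counts in pESCLC-FLB2i at passages 3 and 6 and 10.3 and 6.46 in Epi-piPSC-FLB2i (log2 fold change -8.42 ± 0.48, adjusted p = 0.00936). GSX2, of the ventral forebrain, had 509 and 111 against 0 in both samples, at least 106-fold lower in Epi-piPSC-FLB2i (adjusted p = 0.0162). The level of GSX2 differed several-fold between the pESCLC-FLB2i passages, while both passages stayed far over Epi-piPSC-FLB2i.

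Of the opioid precursors, PENK had 62.3 and 554 normalized counts in pESCLC-FLB2i against 0 in both Epi-piPSC-FLB2i samples, and PDYN had 532 and 258 against 2.07 and 1.84. DPP6 and DPP10 encode partner subunits of voltage-gated potassium channels. DPP6 had 718 and 128 against 0 and 1.84, and DPP10 222 and 317 against 2.07 and 0. The granin SCG2 went from 360.1 and 2983 to 3.10 and 2.77, the neuregulin receptor ERBB4 from 884 and 1043 to 7.24 and 3.69, and the muscarinic receptor CHRM2 from 442 and 524 to 1.03 and 5.53. FAM135B had 50.8 and 489.7 against 0 in both Epi-piPSC-FLB2i samples. AGPAT3, an enzyme of phospholipid synthesis, had 606 and 720.3 against 3.10 and 5.53. The adjusted p of these 9 genes lay between 0.00936 and 0.0284.

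**Figure D2:**
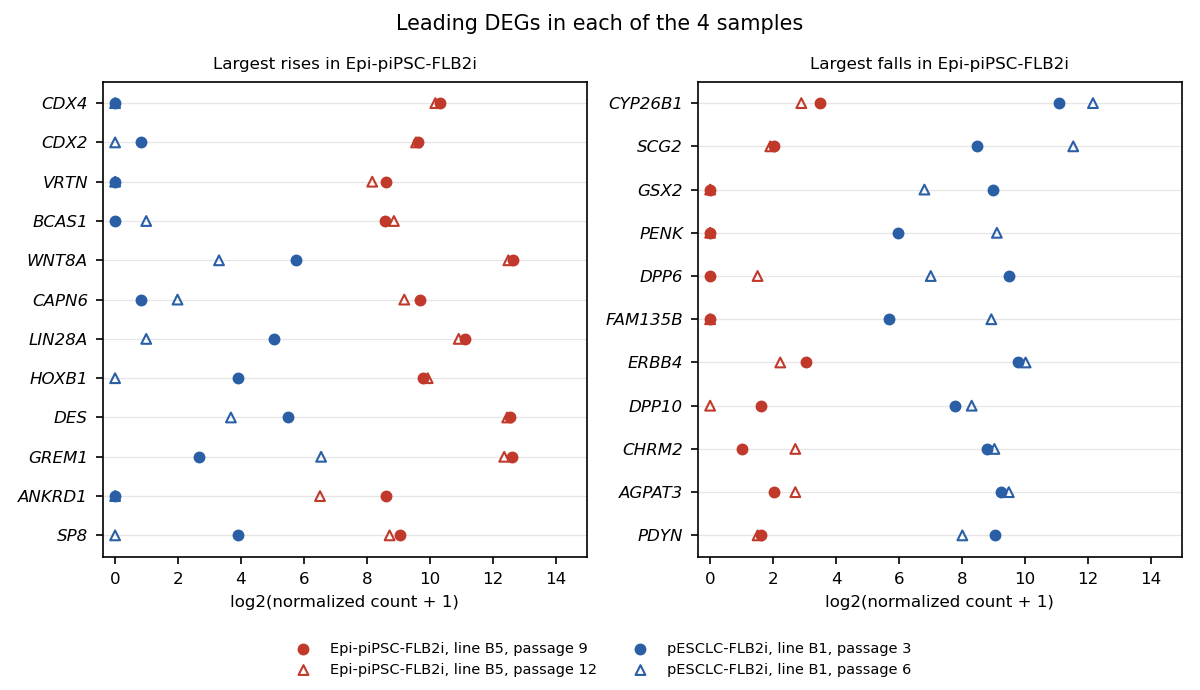
Points give log2(normalized count + 1) of the 12 DEGs with the largest rises (left) and of 11 of the 12 with the largest falls (right) in each of the 4 samples, with passages told apart by the shape of the symbol. The 23 genes were chosen to have no overlap between the red Epi-piPSC-FLB2i points and the blue pESCLC-FLB2i points. The pair of blue points is widely spread for genes such as SCG2 and PENK.

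Genes of pathways and cell types were gathered in 30 lists, with 743 genes named, 614 found by symbol and 514 tested. Of the 514, 102 passed the test in one direction or the other, where 10.9% of all tested genes did. Lists with 4 calls or more on one side only were ectoderm and neural genes and imprinted genes, both lower, and trophectoderm and epithelial genes, which were higher. WNT and FGF genes had calls on both sides.

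**Figure D3:**
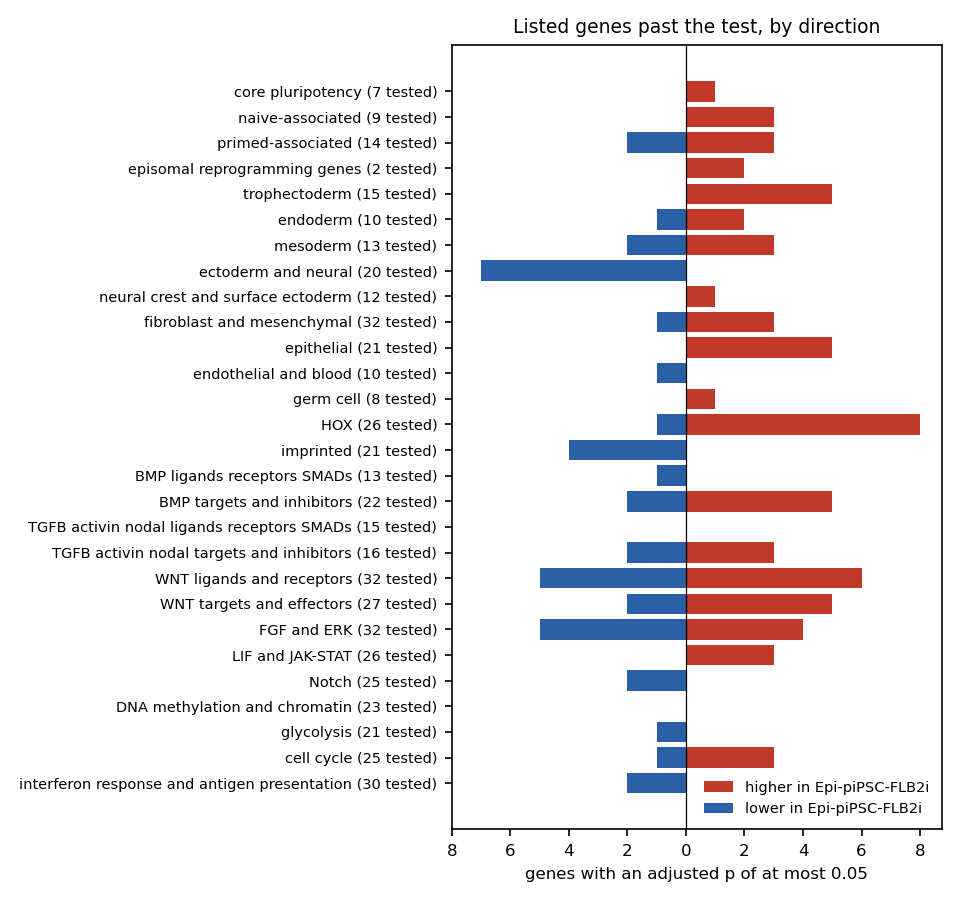
Bars count the genes of each list with an adjusted p of at most 0.05, to the right (red) where higher and to the left (blue) where lower in Epi-piPSC-FLB2i, with the number of genes tested in brackets. HOX genes had the longest bar to the right, 8 of 26, and ectoderm and neural genes the longest to the left, 7 of 20.

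Of 19 core pluripotency genes listed, 11 were found by symbol and 7 tested, and 1 passed in limma, LIN28A, higher. DESeq2 called 3 higher, as did limma with either pESCLC-FLB2i sample left out, with 1 lower as well without passage 6. POU5F1, SOX2 and MYCL were not analysed here. NANOG was low in all 4 samples, at 25.9 and 36.9 normalized counts in Epi-piPSC-FLB2i and 24.6 and 20.7 in pESCLC-FLB2i (log2 fold change 0.44 ± 0.45, adjusted p = 0.548), where the primary blastocyst outgrowths of the series had 287 and 178. PRDM14 and NODAL did not reach the minimum, and GDF3 had no read in any of the 4 samples. LIN28A, an RNA-binding protein that blocks let-7 maturation, had 2209.5 and 1940.2 against 32.3 and 0.985 (7.99 ± 1.33, adjusted p = 0.0316). The human form of this gene was on the plasmids, and reads of plasmid and endogenous origin cannot be told apart in these counts. LIN28B, which was not on the plasmids, had 2241 and 2053 against 577 and 144 (2.89 ± 0.66, adjusted p = 0.0579). TRIM71, another factor of the LIN28 pathway, had 748 and 450.0 against 50.8 and 1.97 (5.55 ± 1.37, adjusted p = 0.0682). The last 2 did not pass the test, and in each the Epi-piPSC-FLB2i values lay over both pESCLC-FLB2i values.

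Of the naive-associated genes, a few rose and several were at or near 0 in both lines. Of 21 listed, 9 were tested and 3 passed, all higher, where 4.24% of all tested genes were. TFAP2C, a factor of early epiblast and trophectoderm, had 189 and 251 against 7.69 and 3.94 (log2 fold change 5.06 ± 0.49, adjusted p = 0.0147). KLF4, also on the plasmids, had 181 and 115 against 15.4 and 34.5 (2.59 ± 0.54, adjusted p = 0.0489), and TBX3 had 36.2 and 85.8 against 0 and 0.985 with a ratio of 144 (counting interval 25.5 to 5750.4) and an adjusted p of 0.0223. ESRRB pointed the other way, at 3.10 and 10.1 against 27.7 and 47.3, without passing the test (-2.46 ± 0.69, adjusted p = 0.086). KLF2, KLF17, DPPA5, FGF4 and NR0B1 were at 5.91 or less in every sample. MYC had 29.0 and 37.8 against 171 and 666 (-3.31 ± 0.70, adjusted p = 0.0505).

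Of the primed-associated genes, 14 were tested, 3 passed higher and 2 lower, where 10.9% of all tested genes passed. LEF1, a nuclear partner of beta-catenin, had 745 and 776 against 76.9 and 107 (log2 fold change 3.05 ± 0.28, adjusted p = 0.0145), and SALL1 3095 and 2460.3 against 534 and 547 (2.35 ± 0.19, adjusted p = 0.0125). OTX2, a factor of the primed epiblast and forebrain, had 85.9 and 17.5 against 0 in both pESCLC-FLB2i samples, at least 19.6-fold (adjusted p = 0.0316). The FGF-responsive factor ETV4 was lower, at 295 and 216 against 881 and 1307 (-2.08 ± 0.30, adjusted p = 0.0248).

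The epithelial genes that passed with all 4 samples in the fit were higher in Epi-piPSC-FLB2i. Of 34 listed genes 21 were tested, and 5 passed, all higher (4.24% of all tested genes were), with a median of 1.66 over the 21. CDH1, the adhesion molecule E-cadherin, had 1452 and 1231 normalized counts against 125 and 16.8 (log2 fold change 4.82 ± 0.93, adjusted p = 0.0416). Of the keratins of simple epithelium, KRT8 had 9447 and 5402 against 442 and 77.8 (5.26 ± 0.85, adjusted p = 0.0307) and KRT18 2427 and 1171 against 125 and 23.6 (4.92 ± 0.85, adjusted p = 0.0338). PKP2, a desmosome protein, had 1017 and 1040.2 against 55.4 and 14.8 (5.11 ± 0.64, adjusted p = 0.0213), and SPINT1, a protease inhibitor, 171 and 119.9 against 39.2 and 19.7 (2.32 ± 0.49, adjusted p = 0.0497). In each of the 5 genes passage 6 was the lowest of the 4 samples. EPCAM did not pass, at 111 and 106 against 93.1 and 9.85 (1.77 ± 1.05, adjusted p = 0.307). With passage 3 left out 14 epithelial genes were higher and 1 lower (median 2.61), and with passage 6 left out 11 were higher and 0 lower (median 0.72).

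Mesenchymal genes passed on both sides. Of 32 tested, 3 were higher and 1 lower, with a median of 0.16, where 4.24% of all tested genes were higher and 6.67% lower. ACTA2, smooth muscle actin, had 1613 and 1284 against 111 and 156 (log2 fold change 3.44 ± 0.27, adjusted p = 0.0125), SNAI1 214 and 209 against 43.9 and 41.4 (2.29 ± 0.32, adjusted p = 0.0239) and PDGFRB 959 and 802 against 218 and 246 (1.92 ± 0.22, adjusted p = 0.0185). The epithelial repressor ZEB1 was lower, at 1015 and 1155 against 2471 and 2266 (-1.13 ± 0.17, adjusted p = 0.0262). Vimentin was abundant in all 4 samples, at 25011 and 24836 against 45429 and 106261 (-1.48 ± 0.45, adjusted p = 0.101). The list depended on which pESCLC-FLB2i sample was kept, with 21 genes higher and 2 lower without passage 6 (median 1.51), and 7 higher and 14 lower without passage 3 (median -0.81).

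**Figure D4:**
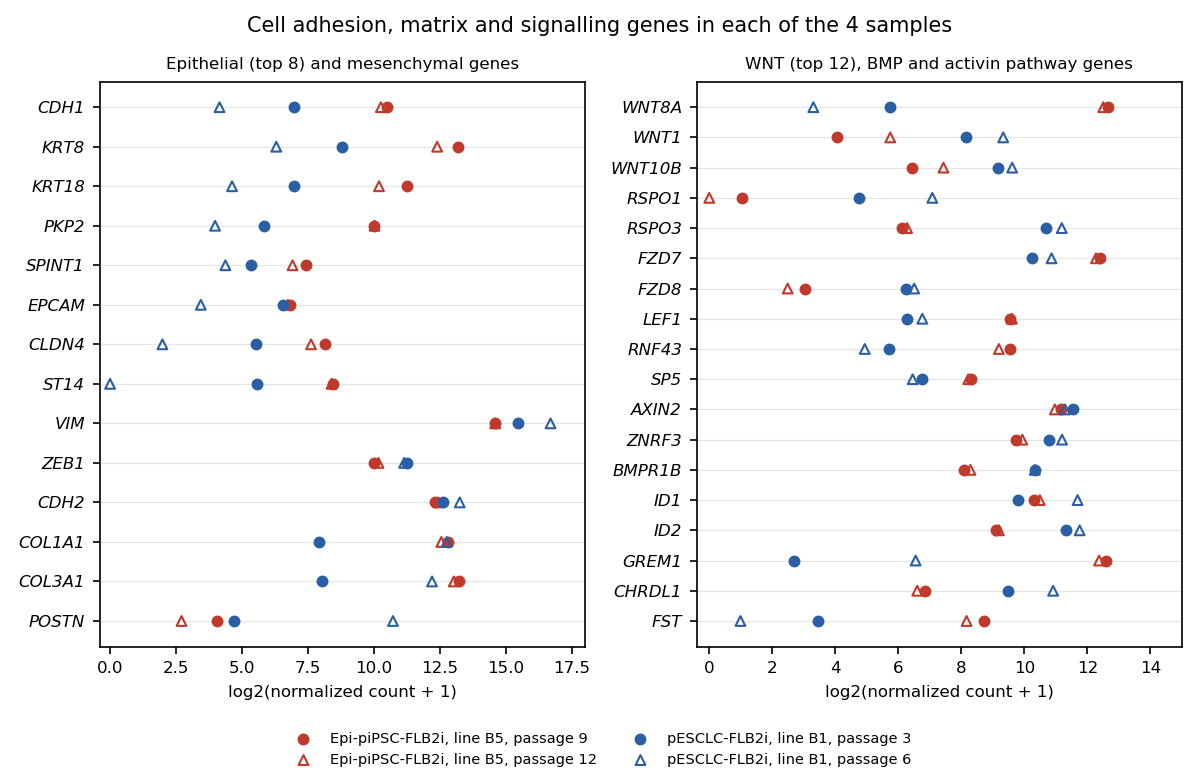
Points give log2(normalized count + 1) in each of the 4 samples for 8 epithelial and 6 mesenchymal genes (left) and for 12 genes of the WNT pathway followed by genes of the BMP and activin pathways (right). Epithelial genes from CDH1 to SPINT1 lie to the right in both Epi-piPSC-FLB2i passages, and COL1A1, COL3A1 and POSTN separate the pESCLC-FLB2i passages from each other.

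Of 15 trophectoderm genes tested, 5 passed and all were higher, where 4.24% of all tested genes were: CDX2, TFAP2C, GATA2, TEAD4 and HAND1. Without passage 3 there were 6 higher and 2 lower, and without passage 6 there were 7 and 1. TEAD4, a Hippo pathway factor, had 975 and 805 against 158 and 117 (log2 fold change 2.69 ± 0.27, adjusted p = 0.0152), and GATA2 88.0 and 64.6 against 5.39 and 0.985 (4.42 ± 0.72, adjusted p = 0.0307). HAND1 was low, at 10.3 and 16.6 against 0 in both pESCLC-FLB2i samples (adjusted p = 0.0286). Other genes known from this tissue did not pass. GATA3 had 108 and 139 against 80.8 and 165 (adjusted p = 0.92), ELF5 45.5 and 13.8 against 44.6 and 36.5 (adjusted p = 0.543), and EOMES, not tested, was at 7.38 or less in every sample.

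Endoderm and mesoderm lists held few genes at appreciable level. FOXA1, FOXA2, HNF4A, AFP, GATA4 and TBXT did not reach the minimum in 2 samples. The basement membrane gene LAMB1 had 4011 and 3382 against 193 and 469 (log2 fold change 3.61 ± 0.44, adjusted p = 0.0207), while the chemokine receptor CXCR4 was lower, at 474 and 721 against 2643 and 2709 (-2.19 ± 0.25, adjusted p = 0.0183). Of 13 mesoderm genes tested, 3 were higher (DES, HAND1 and ACTC1) and 2 lower (NKX2-5 and ISL1), where 10.9% of all tested genes passed. Cardiac actin, ACTC1, had 1386 and 933 against 187 and 209 (2.52 ± 0.27, adjusted p = 0.0165), while the heart regulators NKX2-5 and ISL1 were low and went the other way. NKX2-5 had 0 in both Epi-piPSC-FLB2i samples against 26.2 and 21.7 (adjusted p = 0.0193), and ISL1 1.03 and 0 against 17.7 and 31.5 (adjusted p = 0.0308). SOX10, of the neural crest, was the single call in its list, at 148 and 82.1 against 15.4 and 3.94 (3.63 ± 0.73, adjusted p = 0.0458).

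The ectoderm and neural genes that passed were all lower in Epi-piPSC-FLB2i, 7 of 20 tested, where 6.67% of all tested genes were lower. The median over the 20 was -0.85. PAX6, a master gene of eye and forebrain, had 1.03 and 9.22 normalized counts against 639 and 205 (log2 fold change -6.32 ± 0.98, adjusted p = 0.0286), and SIX6, also of the eye field, 12.4 and 10.1 against 101 and 640.5 (-4.39 ± 0.92, adjusted p = 0.0494). STMN2, a microtubule regulator of growing axons, had 1366 and 2132 against 16060.2 and 23893 (-3.52 ± 0.31, adjusted p = 0.0142). These genes were well over the floor in both pESCLC-FLB2i passages. Among genes of young neurons, DCX had 243 and 303 against 3021 and 1151 (-2.77 ± 0.49, adjusted p = 0.0345) and MAP2 2880.2 and 3519 against 12264 and 11098 (-1.87 ± 0.18, adjusted p = 0.0152). ZIC1 had 2140.2 and 2404 against 8620.2 and 11192 (-2.11 ± 0.20, adjusted p = 0.0145), and the adhesion molecule NCAM1 3266 and 3513 against 7997 and 9592 (-1.37 ± 0.18, adjusted p = 0.0216). Epi-piPSC-FLB2i was not free of neural transcript: MAP2, NCAM1, STMN2 and ZIC1 were each at over 1000 normalized counts in both of its samples. Nestin, the filament of neural progenitors, had 12724 and 13142 against 18651 and 22134 (-0.65 ± 0.20, adjusted p = 0.0979), and CRABP2, a carrier of retinoic acid, 5308 and 5807 against 599 and 1834 (2.40 ± 0.54, adjusted p = 0.0553). RAX, SIX3 and OTX1 stayed under the minimum and OLIG2 had no read in the 4 samples. With passage 3 left out 10 neural genes were lower and 7 higher (median -0.53), and with passage 6 left out 16 were lower and 2 higher (median -1.66).

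Both lines expressed a broad set of HOX genes, the homeobox genes that mark position along the body axis. Of 39 listed genes 34 were found and 26 tested, and 24 of the 26 were at 100 normalized counts or more in both Epi-piPSC-FLB2i samples and 16 in both pESCLC-FLB2i samples. The lines differed in which ones were high: 8 passed higher, where 4.24% of all tested genes did, and 1, HOXB5, lower, with a median of 0.58. In the HOXA cluster, HOXA9 (chromosome 18, 2707 and 2415 against 57.7 and 115) had a log2 fold change of 4.95 ± 0.37 (adjusted p = 0.0117), and HOXA10, 229.7 and 151 against 0 and 1.97, a ratio of 218 (counting interval 59.9 to 1805), with an adjusted p of 0.0158. HOXA5 had 4033 and 3691 against 499 and 923 (2.51 ± 0.32, adjusted p = 0.0217) and HOXA7 403 and 405 against 38.5 and 54.2 (3.12 ± 0.32, adjusted p = 0.0159). Nearer the front of the cluster, HOXA2 had 154 and 182 against 564 and 309 (-1.31 ± 0.37, adjusted p = 0.0859) and HOXA3 777 and 732 against 1229 and 958 (-0.52 ± 0.20, adjusted p = 0.154). Both were lower in each Epi-piPSC-FLB2i sample than in either pESCLC-FLB2i sample but did not pass the test.

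In the HOXB cluster HOXB1 was the gene near 0 in pESCLC-FLB2i, and HOXB5 was lower, at 172 and 177 against 789 and 675 (log2 fold change -2.06 ± 0.22, adjusted p = 0.0169). The neighbours HOXB2, HOXB3, HOXB4, HOXB7 and HOXB8 ran from 146 to 2968 over the 4 samples, with log2 fold changes from -0.66 to 0.66 and no call. In the HOXC cluster HOXC4 had 3943 and 3079 against 1482 and 1394 (1.28 ± 0.19, adjusted p = 0.026) and HOXC6 870.4 and 761 against 163 and 289 (1.90 ± 0.33, adjusted p = 0.0346). No HOXD gene passed. The genes at the far end of the clusters, HOXA11, HOXB13, HOXC11, HOXC12 and HOXC13, were at 2.07 or less in every sample. With passage 3 left out 10 HOX genes were higher and 4 lower, and with passage 6 left out 13 and 6, with medians of 0.39 and 0.88. In the fit that shared its spread over all 14 samples of the series, 3 were higher.

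**Figure D5:**
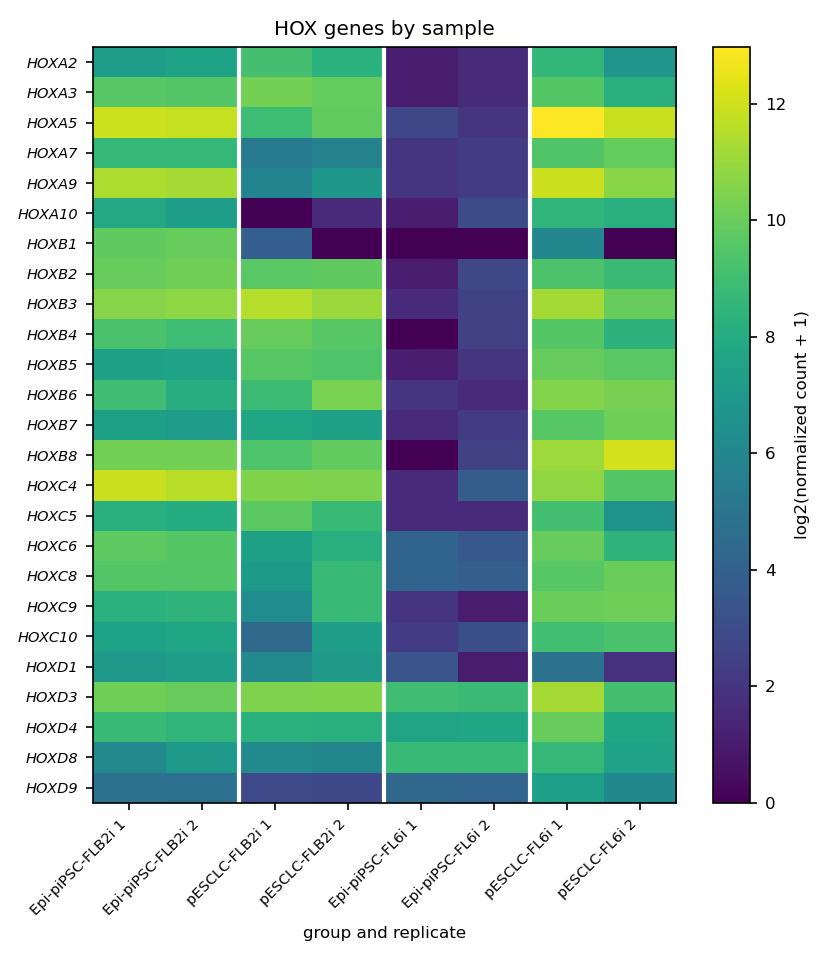
Colour gives log2(normalized count + 1) of 25 of the 26 tested HOX genes (rows, in cluster order) in the 4 FLB2i samples and in the 4 samples of the same kinds of cells in FL6i (columns, by group and replicate). HOXA, HOXB and HOXC genes are dark in both Epi-piPSC-FL6i samples, at 17.4 or less, and mostly bright in the other 3 groups, with HOXA10 and HOXB1 dark in pESCLC-FLB2i as well.

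WNT signalling bears on the comparison because FLB2i blocks GSK3A, a kinase that marks beta-catenin for destruction. Among 32 WNT ligands and receptors tested, 6 were higher and 5 lower, where 10.9% of all tested genes passed. Ligands were found on each side. WNT8A was higher in Epi-piPSC-FLB2i as given, while WNT1 had 283 and 641 normalized counts in pESCLC-FLB2i against 15.5 and 52.6 (log2 fold change -3.84 ± 0.72, adjusted p = 0.0395) and WNT10B 570.1 and 781 against 84.9 and 172 (-2.46 ± 0.42, adjusted p = 0.0332). R-spondins raise the number of WNT receptors at the membrane, and those tested, RSPO3 and RSPO1, were higher in pESCLC-FLB2i. RSPO3 had 1633 and 2327 against 68.3 and 76.5 (-4.73 ± 0.27, adjusted p = 0.00936). RSPO1 had 26.2 and 134 against 1.03 and 0, a ratio of 151 (counting interval 26.7 to 5984), with an adjusted p of 0.0344. RSPO2 did not reach the minimum, and RSPO4 had no read in any of the samples compared.

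The receptors FZD1, FZD2, FZD4, FZD7 and ROR2 were higher in Epi-piPSC-FLB2i by a log2 of 1.70 to 1.88, for example FZD7 with 5364 and 4939 against 1197 and 1858 (log2 fold change 1.79 ± 0.25, adjusted p = 0.0246). FZD8 was lower, at 7.24 and 4.61 against 75.4 and 89.7 (-3.61 ± 0.47, adjusted p = 0.0217). Of 27 targets and effectors 5 were higher and 2 lower, where 4.24% of all tested genes were higher and 6.67% lower. RNF43, a ligase that removes WNT receptors and is itself a target of the pathway, had 752 and 583 against 50.8 and 29.6 (4.06 ± 0.38, adjusted p = 0.0145), and its relative ZNRF3 was lower, at 848 and 976 against 1739 and 2342 (-1.15 ± 0.22, adjusted p = 0.0395). SP5 had 313 and 297 against 108 and 86.7 (1.65 ± 0.29, adjusted p = 0.0338). AXIN2, a target used widely as a readout of the pathway, had 2269.6 and 1999 against 3007 and 2502 (-0.36 ± 0.18, adjusted p = 0.234), and CTNNB1 11184 and 13055 against 14058 and 12719.9 (adjusted p = 0.639). The secreted inhibitor WIF1 had 2.07 and 3.69 against 85.4 and 3122 (-7.10 ± 1.70, adjusted p = 0.0641), with most of its transcript in the passage 6 sample.

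BMP4 is added to FLB2i, and ID genes are its direct targets. Of the BMP ligands, receptors and SMADs, 13 were tested and 1, BMPR1B, passed in limma, where 10.9% of all tested genes did. DESeq2 called 1 higher and 5 lower, and edgeR 0 higher and 1 lower. The median of this list was -0.49, with -0.66 without passage 3 and -0.22 without passage 6. The receptor BMPR1B was lower, at 269 and 312 against 1295 and 1285 (log2 fold change -2.15 ± 0.19, adjusted p = 0.0142). The cells' own BMP4 transcript had 611 and 590.2 against 474 and 799 (-0.04 ± 0.30, adjusted p = 0.95), with passage 3 under and passage 6 over both Epi-piPSC-FLB2i values. Of 22 BMP targets and inhibitors tested, 5 were higher and 2 lower in limma, where 4.24% of all tested genes were higher and 6.67% lower. DESeq2 called 5 higher and 5 lower, and edgeR 4 and 2. The median of these 22 was -0.20, with -0.71 without passage 3 and 0.60 without passage 6. ID2 was lower, at 553 and 583 against 2557 and 3448 (-2.39 ± 0.21, adjusted p = 0.0138). ID1 had 1257 and 1435 against 884 and 3296 (adjusted p = 0.743) and ID3 2098 and 2373 against 1818 and 4845 (adjusted p = 0.596), both with groups that overlapped.

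The secreted inhibitors of BMPs and activins were divided between the lines. GREM1, FST, CHRD and FSTL1 were higher in Epi-piPSC-FLB2i and CHRDL1 lower. FST, which binds activin, had 423 and 286 against 10.0 and 0.985 (log2 fold change 6.22 ± 0.89, adjusted p = 0.0251), CHRD 767 and 480.4 against 202 and 206 (1.57 ± 0.30, adjusted p = 0.041) and FSTL1 18774 and 16646 against 3469 and 6759 (1.87 ± 0.35, adjusted p = 0.0394). CHRDL1 had 114 and 95.9 against 714 and 1923 (-3.48 ± 0.51, adjusted p = 0.0256). NOG did not pass, at 71.4 and 82.1 against 47.7 and 55.2 (adjusted p = 0.334).

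TGFB signalling is blocked in the medium of both lines. No ligand, receptor or SMAD of this branch passed among 15 tested in limma, with 7 at an unadjusted p under 0.05. edgeR also called 0, DESeq2 called 2 higher and 4 lower, and 3 were higher and 7 lower without passage 3, and 5 and 4 without passage 6. Of its 16 targets and inhibitors 3 were higher and 2 lower, where 4.24% of all tested genes were higher and 6.67% lower. PMEPA1, a target that feeds back on the pathway, had 27.9 and 6.46 against 766 and 667 (log2 fold change -5.61 ± 0.70, adjusted p = 0.0211), and SKIL 439 and 537 against 1499.5 and 1769 (-1.74 ± 0.20, adjusted p = 0.0191). CCN1, which YAP also controls, was higher, at 2102 and 1016 against 34.6 and 92.6 (4.66 ± 0.60, adjusted p = 0.0216), as was TGIF1, at 3212 and 2359.8 against 677 and 926 (1.80 ± 0.25, adjusted p = 0.0245).

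FGF and ERK genes had 4 calls higher and 5 lower among 32 tested, where 4.24% of all tested genes were higher and 6.67% lower. FGF10 had 194 and 169 against 8.46 and 9.85 (log2 fold change 4.16 ± 0.39, adjusted p = 0.0145) and FGF1 1.03 and 3.69 against 71.6 and 546 (-6.01 ± 1.09, adjusted p = 0.0367). The inhibitors and phosphatases that ERK induces did not move together. DUSP4 was higher, at 5075 and 3859 against 1413 and 1245 (1.74 ± 0.20, adjusted p = 0.0191), as was DUSP5, at 299 and 246 against 44.6 and 47.3 (2.54 ± 0.32, adjusted p = 0.0209), and SPRY2 was lower, at 357 and 329 against 1503 and 1984 (-2.33 ± 0.22, adjusted p = 0.0145). For LIF and JAK-STAT genes, 3 of 26 passed, all higher, where 10.9% of all tested genes passed: PIM1, a target of STAT3 and STAT5, at 1371 and 1040.2 against 261 and 259 (2.20 ± 0.22, adjusted p = 0.0158), and STAT5A and STAT5B, with log2 fold changes of 1.18 ± 0.24 and 1.08 ± 0.19 (adjusted p = 0.0468 and 0.0346). edgeR also called 3 higher and 0 lower, while a minimum of 50 gave 3 higher and 1 lower and DESeq2 4 higher and 4 lower. The median log2 fold change of this list was 0.05, with -0.10 without passage 3 and 0.27 without passage 6. Of 25 Notch genes 2 were lower in limma, where 6.67% of all tested genes were, and DESeq2 called 5 lower and 0 higher. The median of the 25 was -0.34, with -0.20 without passage 3 and -0.30 without passage 6. The target HEY2 had 1.03 and 0.922 against 39.2 and 422, a ratio of 212 (counting interval 58.4 to 1757), with an adjusted p of 0.0419. NOTCH3 had 1372 and 1356 against 4475 and 4704 (-1.75 ± 0.15, adjusted p = 0.0138).

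Imprinted genes, which are expressed from 1 parental allele and are a known point of variation between cultured lines, had 4 calls among 21 tested, all lower, where 6.67% of all tested genes were lower, with a median of -0.33. PEG3 had 494 and 366 normalized counts against 6964 and 9738 (log2 fold change -4.27 ± 0.25, adjusted p = 0.00936). DLK1 and RTL1 are paternally expressed neighbours in 1 domain. DLK1 had 81.8 and 141 against 909 and 1246 (-3.30 ± 0.36, adjusted p = 0.017) and RTL1 22.8 and 24.9 against 144 and 213 (-2.83 ± 0.39, adjusted p = 0.024). NAP1L5 had 14.5 and 24.9 against 79.2 and 108 (-2.23 ± 0.47, adjusted p = 0.0494). PEG10, IGF2R and COPG2, by contrast, were within a log2 of 0.46 of each other in the 2 lines and had no call. With passage 3 left out 7 imprinted genes were lower and 3 higher, and with passage 6 left out 10 and 1, with a median of -0.71. In the fit on all 14 samples 1 was lower.

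Genes of DNA methylation and chromatin had no call among 23 tested in limma, with 3 at an unadjusted p under 0.05. edgeR called 0 and DESeq2 2, both higher, while 9 were higher and 2 lower without passage 3, and 2 higher and 4 lower without passage 6. Beside the counts that follow, 4.24% of all tested genes were higher and 6.67% lower. Among 25 cell cycle genes, CCNB1, PLK1 and CDK1 were higher by a log2 of 1.27 ± 0.25, 1.20 ± 0.23 and 0.91 ± 0.17 (adjusted p = 0.0418, 0.0415 and 0.0376). The inhibitor CDKN2C was lower, at 139.7 and 143 against 436 and 324 (-1.41 ± 0.28, adjusted p = 0.0435). Glycolysis had 1 call in 21 genes, PFKFB3, lower (-1.53 ± 0.15, adjusted p = 0.0158). The interferon list had 2 in 30, IFIH1 and MX1, both lower (-4.81 ± 0.97 and -2.22 ± 0.43, adjusted p = 0.0451 and 0.041). DESeq2 called 5 cell cycle genes higher and 2 lower, 1 glycolysis gene higher and 5 lower, and 1 interferon gene higher and 3 lower. The medians of these lists, in this order, were 0.39, -0.37 and -0.50. They were 0.68, -0.45 and -1.01 without passage 3, and 0.14, -0.29 and -0.12 without passage 6. TDRD12 was the single limma call among 8 germ cell genes, at 872 and 721 against 199 and 70.0 (2.74 ± 0.53, adjusted p = 0.0421). EMCN, at 1.03 and 0 against 24.6 and 32.5, was the single one among 10 endothelial and blood genes. CDH5, which marks endothelium, was at 1.84 or less in every sample.

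The same question could be asked in FL6i, where Epi-piPSC-FL6i (lines C10 and C11, at passages 12 and 11) and pESCLC-FL6i (line C2 at passages 3 and 9) share no library with the FLB2i groups. The lines are still related, since pESCLC-FLB2i came out of FL6i culture and the authors describe 1 transfection for the Epi-piPSC lines. Y-linked transcripts nevertheless differed between the Epi-piPSC lines, with EIF1AY at 577 and 548 for Epi-piPSC-FL6i but 12.4 and 5.53 for Epi-piPSC-FLB2i, so a shared donor cannot be taken as given, and medium and donor cannot be told apart in comparisons between the media. The pESCLC-FL6i samples stood apart from each other, with 15179200 and 6193659 reads on genes and with KLF4 at 21.0 and 1653. The 32 fibroblast and mesenchymal genes summed to 61466 at passage 3 and 506866 at passage 9, against 76025.5 and 77776 in Epi-piPSC-FL6i. EIF1AY was at 7.34 and 86.5 and KDM5D at 0 and 26.2 in these pESCLC-FL6i samples. The part of these differences in the sign agreement that follows was not tested. The sign was the same in FL6i for 299 of the 327 lower DEGs (91.4%) and for 127 of the 203 higher DEGs (62.6%), where 52.7% of all tested genes were negative and 47.3% positive in FL6i. The median log2 fold change in FL6i was -3.60 for the lower DEGs and 0.92 for the higher ones, beside -4.19 and 4.29 in FLB2i. Of the higher DEGs, 44 had an adjusted p of at most 0.05 in FL6i with the same sign and 7 with the opposite one. Of the lower ones these numbers were 136 and 3. In FL6i as a whole 12.3% of 14452 genes passed.

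The difference between the effects was tested as an interaction over the 8 samples. It passed for 487 of 15248 genes (3.19%), 310 of them (2.03%) with the effect in FLB2i over that in FL6i and 177 (1.16%) with it under. With a single sample left out the count ran from 0, without either Epi-piPSC-FLB2i sample, to 4154, without the passage 3 sample of pESCLC-FL6i, so it rests on individual libraries. Of the 26 HOX genes tested in FLB2i, 20 passed, all with a higher effect in FLB2i. Of the same 26, 19 were under 10 normalized counts in both Epi-piPSC-FL6i samples. HOXA9 had 2.90 and 3.996 in Epi-piPSC-FL6i against 3885 and 1656 in pESCLC-FL6i, so that its log2 fold change was -9.17 there and 4.95 in FLB2i (interaction 14.12 ± 0.72, adjusted p = 0.00309). CDX2 was at 0.965 or less in all 4 FL6i samples, while CDX4 had 134 and 148 in Epi-piPSC-FL6i against 1.05 and 0 (log2 fold change 6.63, interaction adjusted p = 0.0556). The keratins and CDH1 differed in the same direction in both media, with log2 fold changes in FL6i of 5.10 for KRT8, 4.28 for KRT18 and 7.62 for CDH1 (interaction adjusted p = 0.951, 0.763 and 0.309).

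By chromosome, the median log2 fold change of the tested genes lay between -0.18 (chromosome 17, 342 genes) and 0.11 (chromosome 16, 219 genes) for the autosomes. It was -0.22 over the 384 genes of the X chromosome, and between -0.27 and -0.11 over the 4 pairs of single samples. Without the passage 6 sample it was -0.12. The Y-linked gene EIF1AY was low in all 4 samples, at 12.4 and 5.53 against 10.0 and 12.8, and KDM5D was at 1.03 or less. In Epi-piPSC-FL6i KDM5D had 242 and 181 normalized counts. The labels give no sex for the fibroblasts or the embryo.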

How the data were processed

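The authors extracted total RNA, made libraries with a stranded mRNA kit, sequenced them as paired-end reads, aligned these to Sscrofa11.1 with TopHat 2.1.0, counted reads per gene with HTSeq and scaled them by DESeq2 size factors over all 14 samples, which form 7 groups of 2. These normalized counts, a signal unit, are what the authors deposited. Groups, lines and passages came from the labels. Dividing by the value of 1 read gave whole reads for 100% of the values, within 0.001 reads, so reads could be recovered. For 2 of the 14 samples, none of them in FLB2i, 1 read was worth close to 1 normalized count (0.999 and 1.01), and recovery was not relied on. Floors of 3 reads and 95% intervals cover counting error only. Reads of feeder origin were not separated, and near-identical, overlapping or antisense genes are uncertain.

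Symbols were matched by gene identifier for 14151 of 19588 genes. Positions and sequences are RefSeq, Sscrofa11.1. The main test was limma 3.58.1 with a trend on log2(normalized count + 1), with Benjamini-Hochberg adjustment over 14397 genes. The published test, DESeq2, needs counts, so DESeq2 1.42.0 and edgeR 4.0.16 were run on recovered reads as alternatives, in R 4.3.3. Tables were made in Python 3.11.15 with pandas 2.3.3. Further settings were a pseudocount of 0.1 or 5, every gene above 0, a minimum of 50, a fold change of 3, a fit on 14 samples, a replicate block, other scalings and each sample left out. On simulated reads for the comparison of 2 groups of 14397 genes with a dispersion of 0.2, limma called 151 of 200 genes changed 8-fold and 10 unchanged ones, and 0 of 200 changed 2-fold. For the interaction over 15248 genes it called 21 of 200 changed 8-fold and 3 unchanged ones, and 0 of 200 changed 2-fold. With a dispersion of 0.02, it called 192 of 200 changed 8-fold and 148 of 200 changed 2-fold between 2 groups. Unchanged calls were 11 and 5. For the interaction these numbers were 195 and 27, with 8 and 1 unchanged ones. All samples of a simulation had the same dispersion, whereas the spread of the real duplicates differed between the lines.

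Genes were named by a rule: the pluripotency and reprogramming genes, BMP4, up to 6 genes per list past the test with a mean of 50 or more (the 2 most abundant where fewer than 2 passed), and the 12 largest rises and falls among DEGs with a symbol, no overlap and a mean of 200 or more. Some genes that the rule names are not reported here. Other genes were named after their values were seen. The members and the lists were chosen with earlier results of these data known.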

Additional observations from a re-analysis of the deposited data

Results flagged for a closer look

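For 15 of the named genes the difference between the lines was not the same in FLB2i as in FL6i, by the limma interaction term over 8 samples with an adjusted p of at most 0.05. The values below are the log2 fold change in FLB2i minus that in FL6i. They rest on 2 samples per group. Over all genes, the count past this test fell from 487 to 0 without either Epi-piPSC-FLB2i sample, and to 29 and 28 without 1 of the Epi-piPSC-FL6i samples.

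The HOXA genes had the widest differences, 14.12 for HOXA9, 13.10 for HOXA10, 12.55 for HOXA5 and 10.66 for HOXA7. All 4 were higher in Epi-piPSC than in pESCLC in FLB2i and lower in FL6i, with 5.79 and 2.997 normalized counts of HOXA5 in Epi-piPSC-FL6i against 8053 and 3746 in pESCLC-FL6i.

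DES differed by 10.25, SOX10 by 7.52 and SALL1 by 2.88. Each was higher in Epi-piPSC in FLB2i and had a negative log2 fold change in FL6i. CDX2 differed by 8.69, with almost no reads in FL6i. ESRRB, by -8.35, was low in the 4 FLB2i samples and had 2819 and 3413 in Epi-piPSC-FL6i against 91.2 and 28.8 in pESCLC-FL6i.

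Among neural genes, STMN2 differed by -4.40 and DPP10 by -9.64, both lower in Epi-piPSC in FLB2i with positive values in FL6i (0.88 and 2.40). CYP26B1 differed by -7.02, lower in both media and more so in FLB2i. DCX, ZIC1 and SOX9 differed by 5.81, 6.73 and 4.70. Their log2 fold changes were -8.59, -8.85 and -5.34 in FL6i and -2.77, -2.11 and -0.65 in FLB2i. SOX9 did not pass limma in FLB2i (adjusted p = 0.152).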

How the results depend on the processing

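In both FLB2i groups replicate 1 was the earlier passage (9 and 3) and replicate 2 the later one (12 and 6). A replicate block is therefore a term for earlier against later passage. Matched by replicate number, the departures of the lines from their own means correlated at -0.07. With the block limma passed 646 genes in place of 1571, 244 higher and 402 lower. Among these were 4 ectoderm and neural genes, 2 imprinted ones and 66 listed genes in all. DESeq2 on recovered reads passed 3087 genes, 1252 higher and 1835 lower, with 10 epithelial and 177 listed genes. edgeR passed 1360 genes, with 3 epithelial. The fit on all 14 samples called 3 HOX, 9 epithelial and 1 imprinted gene in those directions. A fold change of 3 gave 1089 DEGs. With 1 sample left out, the counts ran from 0 to 925 for DEGs, 0 to 5709 for genes past the test, 0 to 2659 for those higher, 0 to 3050 for those lower, 0 to 292 for listed genes, 0 to 13 for HOX, 0 to 16 for neural, 0 to 14 for epithelial, 0 to 10 for imprinted genes, and 0 to 4154 for the interaction (28 and 29 without an Epi-piPSC-FL6i sample). The lone sample is then assumed to vary like the other group. Chromosome medians ran from -0.24 to -0.12 for X and from -0.21 to -0.11 for chromosome 17.

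Leaving 1 sample out cannot change the sign of a gene whose groups do not overlap. Of 121 named genes tested, 115 kept their sign in every alternative. The 6 that did not had no call in the main fit of all 4 samples. With 1 sample left out their log2 fold changes ran from -0.41 to 0.34 for BMP4, -1.33 to 0.75 for MSX1 and -0.077 to 1.45 for TIE1. They ran from -0.092 to 0.32 for SMARCA4, -0.12 to 0.32 for GAPDH and -0.92 to 0.12 for EIF1AY. MSX1 was at -1.33 without pESCLC-FLB2i replicate 1 and at 0.75 without replicate 2, so its direction depended on the sample kept. Scaling within the 4 samples left the share of higher calls at 41.2% and with TMM at 41.7%, against 38.9%. The planned edgeR interaction was not run, since read recovery was not relied on for 1 of its 8 samples. Depth limits low genes, where 3 reads are worth 2.31 to 3.10 normalized counts.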
